A study of Saccharomyces cerevisiae and Saccharomyces paradoxus and Saccharomyces cerevisiae x Saccharomyces paradoxus with 12 samples.

Results

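The chaperonin containing TCP-1 (CCT, also called TRiC) was followed through mRNA abundance and ribosome occupancy in Saccharomyces cerevisiae, S. paradoxus and their hybrid. The members were the 8 genes that encode its subunits, taken by locus ID: TCP1 (YDR212W), CCT2 (YIL142W), CCT3 (YJL014W), CCT4 (YDL143W), CCT5 (YJR064W), CCT6 (YDR188W), CCT7 (YJL111W) and CCT8 (YJL008C). All 8 had a row in the count table of 5226 genes, and all 8 passed the filter on low counts.

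CCT is the chaperonin of the eukaryotic cytosol, a barrel of 2 stacked rings in which each ring holds 1 copy of each of the 8 related subunits. It uses ATP to close its chamber over newly made proteins, above all actin and tubulin, and it also folds activators of the anaphase-promoting complex. In yeast each subunit comes from its own essential gene. TCP1, CCT2, CCT4 and CCT5 form the side of the ring that binds ATP tightly, and CCT3, CCT6, CCT7 and CCT8 form the side that binds it weakly. Prefoldin hands unfolded actin and tubulin to the barrel.

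The tested strains were S. cerevisiae GSY83, S. paradoxus GSY82 and the hybrid GSY88, all diploid, with no mutation or transgene named in the labels. Each strain gave 2 libraries of ribosome profiling (Ribo-seq, the reading of mRNA stretches protected by ribosomes) and 2 of RNA-seq, 12 libraries in 6 groups with n = 2 each. All strains grew in YEP+D, a rich glucose medium, at 30 °C to an OD600 of 0.6 to 0.9, and all received cycloheximide, which holds ribosomes on the mRNA, before extraction. Hybrid libraries were counted for each gene's S. cerevisiae allele and S. paradoxus allele, which made 16 columns. The labels do not say whether the 2 samples of a group were separate cultures, so p-values here rest on the spread between 2 samples a group, which may be technical. The libraries are bulk, so a shift in the make-up of a culture and in the RNA per cell cannot be told apart. The columns held 6116133 to 8910405 counts, and a subunit had 1465 to 6101 counts in a column. The 8 genes together made up 0.298% to 0.454% of a column. Levels are CPM, a gene's counts relative to the total of its library on the usual fixed scale, adjusted by TMM, a factor that sets the typical gene equal between libraries. A gene is said to be called when its adjusted p from edgeR's quasi-likelihood test, corrected over all genes tested by the Benjamini-Hochberg method, was under 0.05.

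The genes lie on 3 S. cerevisiae chromosomes (build sacCer3). TCP1 occupies 887232 to 888911, CCT4 199996 to 201582 and CCT6 836421 to 838061 of chromosome IV. CCT2 occupies 83302 to 84885 of chromosome IX. CCT5 (555914 to 557602), CCT7 (207877 to 209529), CCT3 (407558 to 409162) and CCT8 (419957 to 421663) are on chromosome X. CCT8 is on the minus strand and the others on the plus strand. Each position is that of an uninterrupted coding sequence of 1584 to 1707 bases, and no other gene of the R64 gene table overlapped any of the 8. The S. paradoxus ortholog had the same length for each gene except CCT3, which is 1605 bases long in S. cerevisiae and 1608 bases long in S. paradoxus.

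The mRNA of 6 of the 8 CCT subunits was called lower in S. cerevisiae than in S. paradoxus. The difference asks how far expression has diverged between the parents. The 6 were TCP1, CCT2, CCT5, CCT6, CCT7 and CCT8. CCT3 and CCT4 were not called, and no subunit was called higher. Over all 5158 genes tested, 21.6% were called lower. The median log2 difference of the 8, S. cerevisiae minus S. paradoxus, was -0.697, against -0.0032 for all genes tested.

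On the side of the ring that binds ATP tightly, CCT5 showed the widest gap. CCT5 had 301 and 275 CPM in the S. cerevisiae RNA-seq libraries, against 651 and 556 CPM in the S. paradoxus libraries. The log2 difference was -1.07 (SE 0.19, adjusted p = 0.000721), so that S. cerevisiae held 0.477 times the S. paradoxus level. TCP1, the subunit that gave the complex its name, had 227 and 234 CPM in S. cerevisiae, against 369.9 and 416 CPM in S. paradoxus (log2 difference -0.77, SE 0.16, adjusted p = 0.00185). Both S. cerevisiae libraries lay below both S. paradoxus libraries for either gene, with a gap wider than the spread within a group. CCT2 had 298 and 307 CPM in S. cerevisiae, against 475 and 532 CPM in S. paradoxus (log2 difference -0.74, SE 0.16, adjusted p = 0.00293). CCT4, the most abundant subunit mRNA of S. cerevisiae per coding length, had 391 and 392 CPM there, against 466 and 538 CPM in S. paradoxus. Its groups did not overlap, but its log2 difference of -0.36 (SE 0.16, adjusted p = 0.0795) was not called.

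On the side that binds ATP weakly, CCT6 had 205 and 189 CPM in S. cerevisiae, against 412 and 426 CPM in S. paradoxus. Its log2 difference of -1.09 (SE 0.20, adjusted p = 0.000745) was the largest of the 8, a level of 0.471 times that of S. paradoxus. CCT8 had 283 and 273 CPM in S. cerevisiae, against 396 and 482 CPM in S. paradoxus (log2 difference -0.66, SE 0.15, adjusted p = 0.00389). CCT7 had 291 and 283 CPM in S. cerevisiae, against 383 and 496 CPM in S. paradoxus. The 2 S. paradoxus samples of CCT7 differed more from each other than for any other subunit, and its log2 difference was -0.62 (SE 0.19, adjusted p = 0.0206). CCT3 had 232 and 207 CPM in S. cerevisiae, against 278 and 246 CPM in S. paradoxus, 2 groups that came close to each other. Its log2 difference of -0.26 (SE 0.16, adjusted p = 0.215) was not called.

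The number of calls depended on how libraries were scaled. Scaling by column totals in place of TMM moved the median of all genes by 0.272 and gave 4 calls, TCP1, CCT2, CCT5 and CCT6, all lower; the value of CCT3 was then 0.02. The calls over all genes were 1129 higher and 1116 lower with TMM, against 1698 higher and 650 lower with column totals. The call of CCT7 was lost without S. cerevisiae RNA-seq replicate 1 (adjusted p = 0.0901), without S. cerevisiae RNA-seq replicate 2 (0.118) or without S. paradoxus RNA-seq replicate 2 (0.159).

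**Figure D1:**
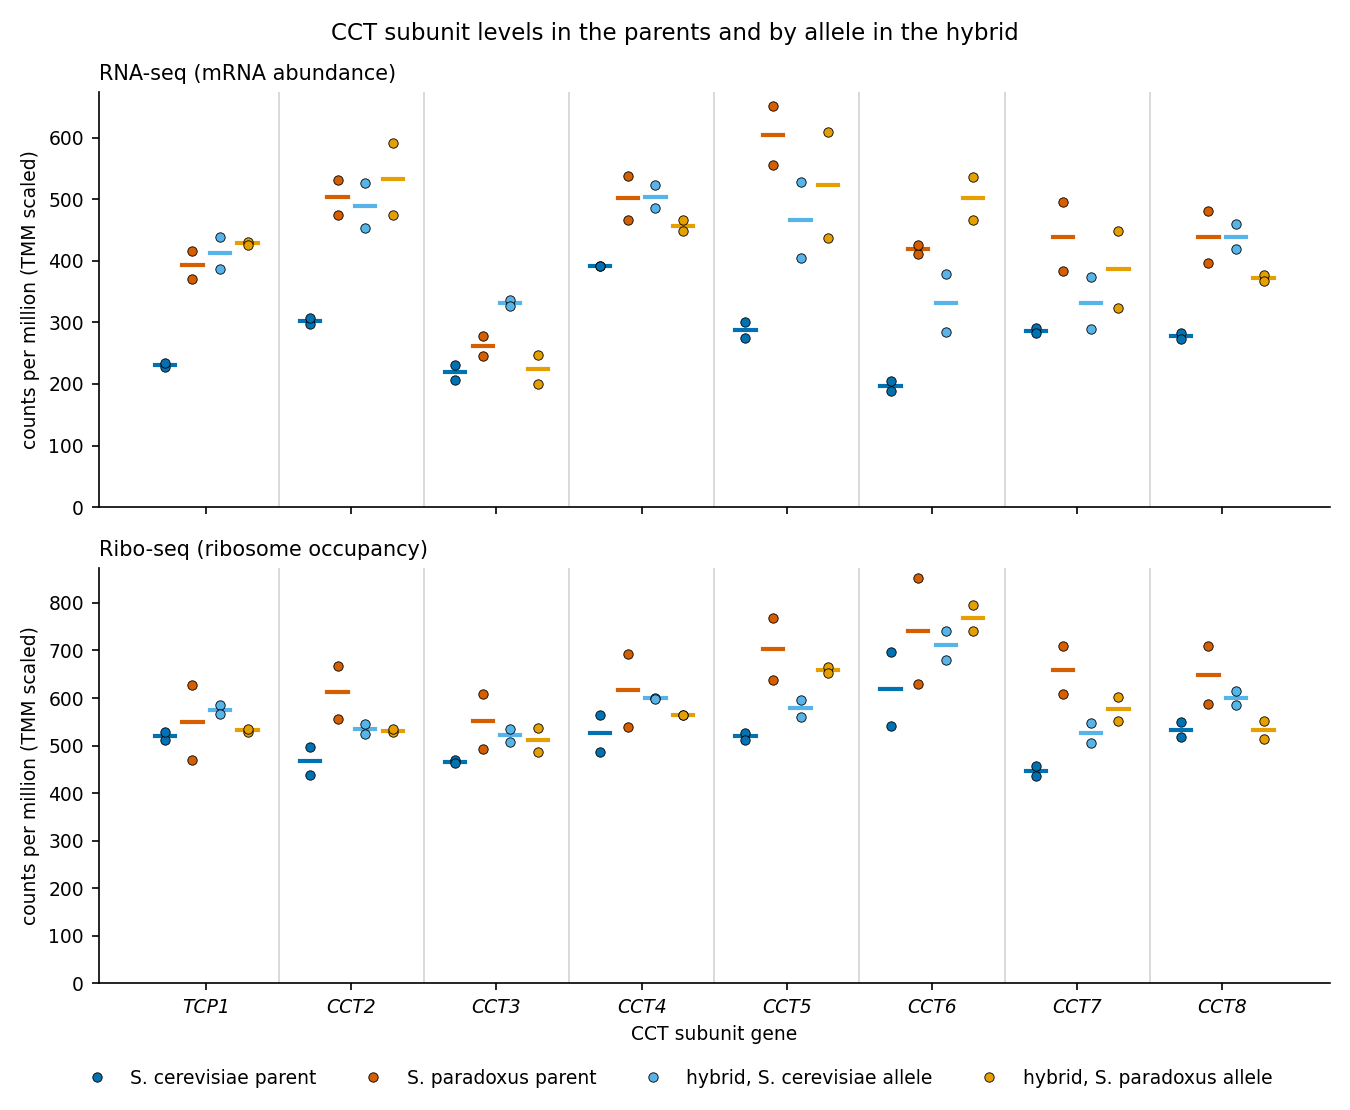
CCT subunit levels in TMM-scaled CPM (vertical axes, from 0) for each gene in RNA-seq (top) and Ribo-seq (bottom); points are the 2 replicates and bars their mean, for the parents and for each allele of the hybrid. In RNA-seq both S. cerevisiae points lie below both S. paradoxus points for all 8 genes, as they do for 38.7% of all genes tested. In Ribo-seq they do so for 5 of the 8, against 36.9% of all genes tested.

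Ribosome occupancy was then compared between the parents. CCT7 was the 1 subunit called lower in S. cerevisiae, where 15.0% of all genes were. CCT7 had 435 and 457 CPM in S. cerevisiae Ribo-seq, against 710 and 609 CPM in S. paradoxus (log2 difference -0.56, SE 0.19, adjusted p = 0.0397). This call was lost with column totals (adjusted p = 0.0619), with the trend on coding length removed (0.052), and when any 1 of 8 libraries was left out, among them each of the 4 parental Ribo-seq libraries (0.0625 to 0.21). The other 7 values were also negative, from -0.44 for CCT5 to -0.08 for TCP1, and the median of the 8 was -0.270, against 0.0205 for all genes tested. CCT2 was called by DESeq2's Wald test (adjusted p = 0.0281) and by edgeR with the trend on coding length removed (0.0354). CCT5 was called by edgeR with the replicate number as a term (0.0435) and with parental columns alone (0.0387). With column totals no subunit was called. Without hybrid RNA-seq replicate 1 the values of CCT2 and CCT5 were -0.41 and -0.46, and without replicate 2 they were -0.39 and -0.44. The value of TCP1 ran from -0.27 to 0.15 when single libraries were left out.

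The samples of S. paradoxus Ribo-seq lay far apart for this complex. Replicate 2 was lower than replicate 1 for all 8 genes, by a median of -0.2884 on the log2 scale, where the median of all genes was -0.0173. CCT6 had 542 and 697 CPM in S. cerevisiae, against 852 and 630 CPM in S. paradoxus, so that the groups overlapped. TCP1 had 512 and 529 CPM in S. cerevisiae, against 628 and 471 CPM in S. paradoxus, and the 2 S. paradoxus samples lay on either side of the S. cerevisiae samples. CCT4 also overlapped, with 487 and 564 CPM in S. cerevisiae, against 694 and 538 CPM in S. paradoxus. The remaining 5 genes did not overlap, with both S. cerevisiae samples below both S. paradoxus samples, as for 36.9% of all genes tested. CCT5 had 527 and 512 CPM in S. cerevisiae, against 767 and 638 CPM in S. paradoxus, with a log2 difference of -0.44 (SE 0.19, adjusted p = 0.0932). CCT2 had 438 and 497 CPM in S. cerevisiae, against 668 and 557 CPM in S. paradoxus (log2 difference -0.39, SE 0.16, adjusted p = 0.082). CCT3 had 469.5 and 463 CPM in S. cerevisiae, against 609 and 493 CPM in S. paradoxus, a gap smaller than the spread of the S. paradoxus samples. CCT8 had 549.7 and 518 CPM in S. cerevisiae, against 709 and 587 CPM in S. paradoxus, also with a gap smaller than that spread. The gaps of CCT5 and CCT2 were likewise smaller than the spread of their S. paradoxus samples.

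Translation efficiency, here the occupancy difference minus the mRNA difference on the log2 scale, was positive for all 8 subunits in S. cerevisiae relative to S. paradoxus, but none was called by edgeR. Of all genes, 3.47% were called in either direction. The values were 0.83 for CCT6 (SE 0.27, adjusted p = 0.125), 0.69 for TCP1 (SE 0.22, 0.116), 0.63 for CCT5 (SE 0.27, 0.236), 0.38 for CCT8, 0.35 for CCT2, 0.13 for CCT4, 0.05 for CCT7 and 0.02 for CCT3. CCT6, TCP1 and CCT5 had an unadjusted p under 0.05, and their 95% intervals were 0.24 to 1.42, 0.21 to 1.17 and 0.06 to 1.21. DESeq2's Wald test called 2 of them, CCT6 (adjusted p = 0.0452) and TCP1 (0.0237), and it called more of all genes than edgeR did. With the trend on coding length removed, edgeR called 1, TCP1 (0.0464). Without hybrid RNA-seq replicate 1 the values of CCT6, TCP1 and CCT5 were 0.79, 0.65 and 0.59. Without replicate 2 they were 0.83, 0.69 and 0.63. With column totals the values of CCT3, CCT4 and CCT7 were negative (-0.22, -0.09 and -0.17) and none was called. Calls over all genes were then 53 higher and 120 lower, against 104 higher and 75 lower with TMM.

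**Figure D2:**
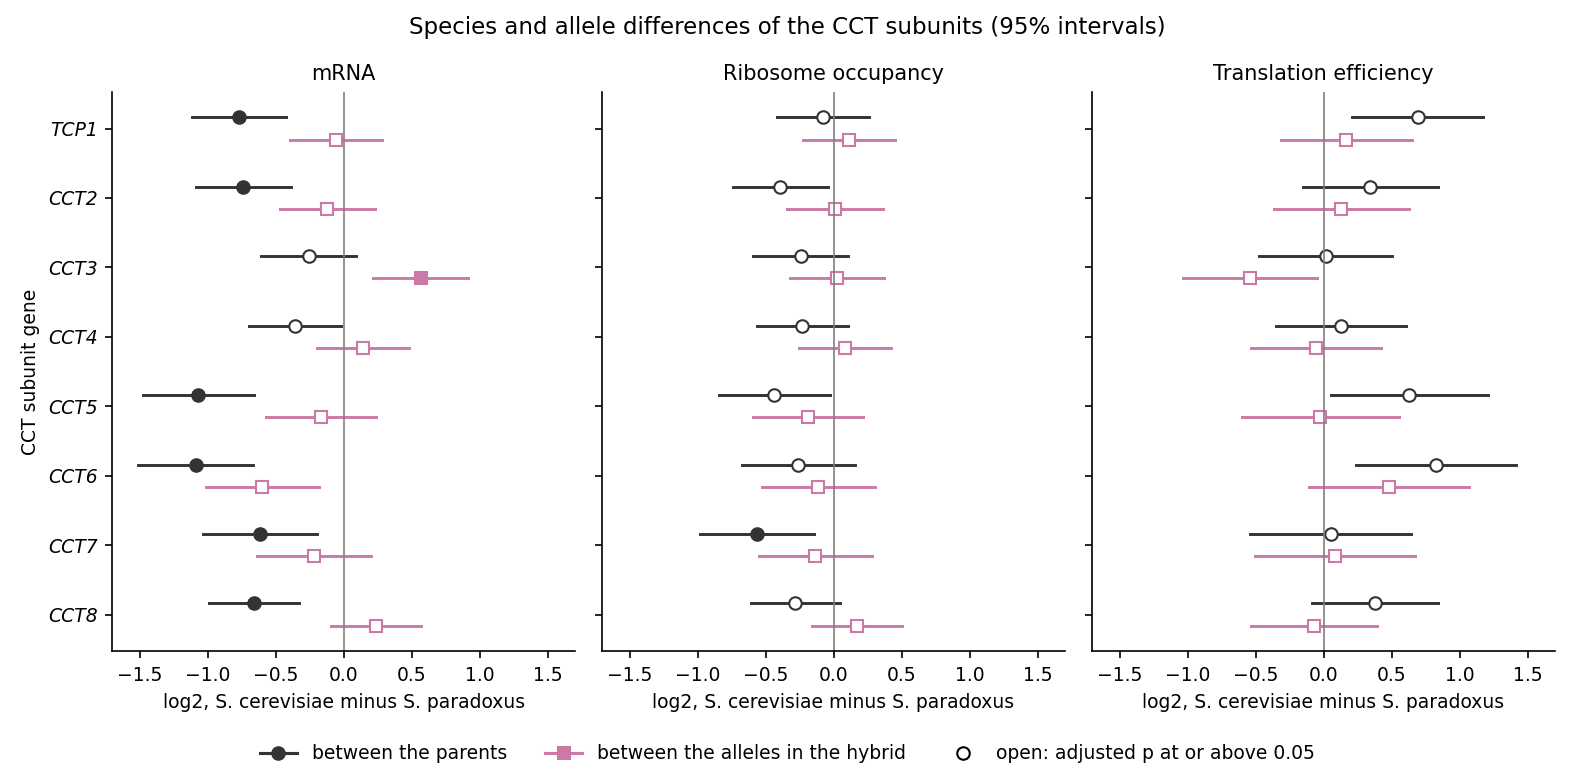
Log2 difference, S. cerevisiae minus S. paradoxus, with its 95% interval (horizontal axes) for each CCT subunit gene (rows), between the parents (dark circles) and between the alleles in the hybrid (pink squares), for mRNA, ribosome occupancy and translation efficiency; filled symbols have an adjusted p under 0.05. The parental mRNA values run from -1.09 to -0.26, while the allelic ones lie around 0 except for CCT3 (0.57) and CCT6 (-0.60).

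Inside the hybrid both alleles share 1 cell, and the allelic ratio asks how much of the parental difference stays with the gene copy itself. The S. cerevisiae and S. paradoxus alleles of most subunits gave similar amounts of mRNA. CCT3 was called higher for the S. cerevisiae allele, as were 5.76% of all genes, and no subunit was called lower. CCT3 had 337 and 327 CPM from the S. cerevisiae allele, against 247 and 201 CPM from the S. paradoxus allele. Its log2 difference was 0.57 (SE 0.16, adjusted p = 0.036), opposite in sign to its uncalled parental value. CCT6 had 284 and 379 CPM from the S. cerevisiae allele, against 466 and 537 CPM from the S. paradoxus allele. Its log2 difference of -0.60 (SE 0.19) missed the threshold with an adjusted p of 0.0598, and passed it with DESeq2's Wald test (0.029) and with column totals (0.0359). The groups of CCT3 and CCT6 did not overlap, and neither did those of CCT4 and CCT8. The share of all genes without overlap was not counted for this comparison, so the lack of overlap does not set these genes apart. For mRNA of the S. paradoxus allele against its parent, that share was 49.7% of all genes tested. For hybrid mRNA with the alleles summed against S. paradoxus it was 53.1%. The median of the 8 was -0.0883, against -0.0122 for all genes tested.

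The alleles of a library are read from the same cells, so each library also gave its own share. The S. cerevisiae allele made up 57.2% and 61.2% of the CCT3 mRNA counts of the 2 hybrid libraries, with exact 95% Clopper-Pearson intervals of 55.7% to 58.6% and 59.6% to 62.7%. For CCT6 it made up 37.4% (36.2% to 38.7%) and 40.6% (39.4% to 41.8%). For CCT8 it made up 54.4% (53.2% to 55.7%) and 52.4% (51.1% to 53.7%). Over all genes the share was 50.04% and 50.01% in these libraries, and the intervals cover counting error only. When the hybrid columns were fitted alone with a term for each library, CCT3 (log2 difference 0.60, adjusted p = 0.000392), CCT6 (-0.58, 0.000216) and CCT8 (0.26, 0.0129) were called. That fit called 41.4% of all genes, so that 3 of 8 is near its background, and limma voom with a random library effect called the same 3 with a background of 48.2%. CCT4, CCT2, CCT5, CCT7 and TCP1 had library shares of 44.99% to 53.4% and were called in none of the fits run. The call of CCT3 without the block was lost when any 1 of 7 libraries was left out, with the highest adjusted p (0.148, value 0.45) without hybrid RNA-seq replicate 2.

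On ribosomes the 2 alleles of CCT3 and CCT6 were closer to even than in mRNA. The S. cerevisiae allele made up 49.2% (47.9% to 50.4%) and 50.6% (49.4% to 51.9%) of the CCT3 Ribo-seq counts. For CCT6 it made up 47.5% (46.5% to 48.6%) and 47.4% (46.4% to 48.5%). Both CCT6 intervals, which cover counting error only, lay below the 50.03% of all genes, the same side as its mRNA. So did those of CCT5 (shares of 46.6% and 45.7%) and CCT7 (46.9% and 47.4%), while those of CCT8 (52.0% and 52.8%) lay above. Each was on the side of its mRNA. The mRNA shares of CCT5 were 46.0% and 47.2%, so it was not closer to even on ribosomes in both libraries. CCT3 had 535 and 508 CPM from the S. cerevisiae allele, against 538 and 487 CPM from the S. paradoxus allele, and the groups overlapped. CCT6 had 741 and 680 CPM from the S. cerevisiae allele, against 795 and 741 CPM from the S. paradoxus allele. No subunit was called in allelic occupancy by edgeR, where 8.74% of all genes were called, none had an unadjusted p under 0.05, and DESeq2's Wald test, the block and limma voom also called 0. The values ran from -0.19 for CCT5 to 0.17 for CCT8.

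Allelic translation efficiency was -0.54 for CCT3 (SE 0.23, adjusted p = 0.435) and 0.48 for CCT6 (SE 0.27, 0.652), of opposite sign to their mRNA values. Of the 8, edgeR called 0, where 1.38% of all genes were called, 1 subunit (CCT3) had an unadjusted p under 0.05, and DESeq2's Wald test called 0. With the library as a block, where 8.31% of all genes were called, both were called, CCT3 at -0.58 (adjusted p = 0.0165) and CCT6 at 0.46 (0.0251). Limma voom with a random library effect also called both, with adjusted p of 0.00803 and 0.0224, where 15.7% of all genes were called. The mRNA ratio enters this measure with a minus sign, so that an error in it moves both values in opposite directions. The other 6 values lay between -0.07 and 0.17.

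The parental ratio was then set against the allelic ratio. For mRNA all 8 values of the parental minus the allelic log2 ratio were negative, with a median of -0.664, against 0.0314 for all genes tested. CCT5 (-0.90, SE 0.27, adjusted p = 0.0437), CCT8 (-0.90, SE 0.22, 0.0187) and CCT3 (-0.82, SE 0.23, 0.034) were called lower, where 5.51% of all genes were. TCP1 (-0.71, SE 0.22, adjusted p = 0.0533) and CCT2 (-0.62, SE 0.23, 0.095) missed the threshold. CCT4, CCT6 and CCT7 had values of -0.50, -0.49 and -0.40. DESeq2's Wald test called 5, with TCP1 and CCT2 added, as did limma voom. Both of these fits also called more of all genes than edgeR did. The parental ratio used here is the comparison given above, so the 2 results share the parental libraries.

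The values of single alleles lie behind the 2 ratios. Both hybrid values of the S. cerevisiae allele lay above both values of the S. cerevisiae parent for 7 of the 8 subunits, all but CCT7, as for 26.8% of all genes tested. The S. paradoxus allele lay wholly above its parent for TCP1 and CCT6, wholly below it for CCT8, and overlapped it for 5; of all genes tested, 49.7% did not overlap. The S. cerevisiae allele of CCT3 had 337 and 327 CPM in the hybrid, against 232 and 207 CPM in its parent. Its S. paradoxus allele had 247 and 201 CPM in the hybrid, against 278 and 246 CPM in its parent, and these overlapped. The S. cerevisiae allele of TCP1 had 386 and 438 CPM in the hybrid, against 227 and 234 CPM in the S. cerevisiae parent. Its S. paradoxus allele had 431 and 426 CPM in the hybrid, against 369.9 and 416 CPM in the S. paradoxus parent. CCT5 had 528 and 404 CPM from the S. cerevisiae allele in the hybrid, against 301 and 275 CPM in its parent. The S. paradoxus allele of CCT5 had 609 and 437 CPM in the hybrid, against 651 and 556 CPM in its parent, and these overlapped. CCT8 had 459.5 and 419 CPM from the S. cerevisiae allele in the hybrid, against 283 and 273 CPM in its parent. Its S. paradoxus allele had 377 and 367 CPM in the hybrid, against 396 and 482 CPM in its parent. CCT7 differed from these, since its S. cerevisiae allele had 374 and 289.7 CPM in the hybrid, against 291 and 283 CPM in its parent, and the groups overlapped. These allele levels were not tested against the parents.

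With column totals none of the 8 was called in the parental minus allelic mRNA ratio, all 8 values stayed negative (-0.59 to -0.09) and the median of all genes moved by 0.311. Calls over all genes were 356 higher and 284 lower with TMM, against 758 higher and 126 lower with column totals and 424 higher and 506 lower with DESeq2's Wald test. Leaving out either S. cerevisiae RNA-seq library or either hybrid Ribo-seq library left 0 calls. Leaving out either S. cerevisiae Ribo-seq library or either S. paradoxus RNA-seq library left 1, and leaving out either hybrid RNA-seq library gave 4. For occupancy the parental minus allelic values were also all negative, from -0.45 for CCT8 to -0.15 for CCT6. None was called by edgeR, where 6.98% of all genes were called, none had an unadjusted p under 0.05, and DESeq2's Wald test and limma voom called 0.

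With the alleles summed, the hybrid was compared with each parent. Against S. cerevisiae 5 subunits were called higher, TCP1, CCT2, CCT5, CCT6 and CCT8, where 14.2% of all 5159 genes tested were, and none was called lower. Both hybrid libraries lay above both S. cerevisiae libraries for all 8 genes, as they did for 28.4% of all genes tested. CCT6 had 377 and 456 CPM in the hybrid, against 208 and 192 CPM in S. cerevisiae, a log2 difference of 1.06 (SE 0.19, adjusted p = 0.00286). TCP1 had 409.7 and 429 CPM in the hybrid, against 231 and 238 CPM in S. cerevisiae (0.84, SE 0.17, adjusted p = 0.00464). CCT5 had 570.3 and 418 CPM in the hybrid, against 306 and 279.5 CPM in S. cerevisiae (0.75, SE 0.18, adjusted p = 0.0112). CCT5 was the subunit with the widest gap between the hybrid libraries in CPM. CCT2 (0.73, SE 0.16, adjusted p = 0.00814) and CCT8 (0.52, SE 0.16, adjusted p = 0.0346) were also called. CCT3 (0.31), CCT7 (0.30) and CCT4 (0.27) were not, and with column totals their values were 0.02, 0.01 and -0.02. The comparison shares its S. cerevisiae libraries with that between the parents.

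Leaving out a S. cerevisiae RNA-seq sample took away most of these calls. Without replicate 1 of that group only CCT6 was called, and without replicate 2 only CCT6 and TCP1 were. The log2 differences themselves moved little, to 0.82 for TCP1 without replicate 1, 0.71 and 0.75 for CCT2 without replicate 1 and replicate 2, 0.82 and 0.69 for CCT5, and 0.54 and 0.49 for CCT8. With column totals the 5 calls became 4, without CCT8 (adjusted p = 0.299), and the median of all genes moved by -0.291. Calls over all genes were 731 higher and 579 lower with TMM, against 374 higher and 1470 lower with column totals.

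Against S. paradoxus edgeR called 0 of the 8 in hybrid mRNA, where 25.7% of all genes were called in either direction. None had an unadjusted p under 0.05, and DESeq2's Wald test called 0. The values ran from -0.32 for CCT7 to 0.07 for TCP1, and the 95% intervals of the 8 together spanned -0.72 to 0.43. The groups overlapped for all 8 subunits, while 53.1% of all genes tested did not overlap. Without hybrid RNA-seq replicate 1, CCT5 (-0.56, adjusted p = 0.0181) and CCT7 (-0.56, 0.0214) were called lower. Replicate 2 of the hybrid held 305 CPM of CCT7, against 413 CPM in replicate 1, the lower value being close to the 295 and 287 CPM of S. cerevisiae.

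Hybrid occupancy was called for no subunit against either parent by edgeR, where 12.7% of all genes were called against S. cerevisiae and 7.62% against S. paradoxus. No subunit had an unadjusted p under 0.05 in either, and DESeq2's Wald test called 0 in both. The values were 0.08 to 0.30 against S. cerevisiae and -0.27 to 0.00 against S. paradoxus. CCT7, for example, had 583 and 535 CPM in the hybrid, against 441 and 465 CPM in S. cerevisiae and 724 and 622 CPM in S. paradoxus.

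**Figure D3:**
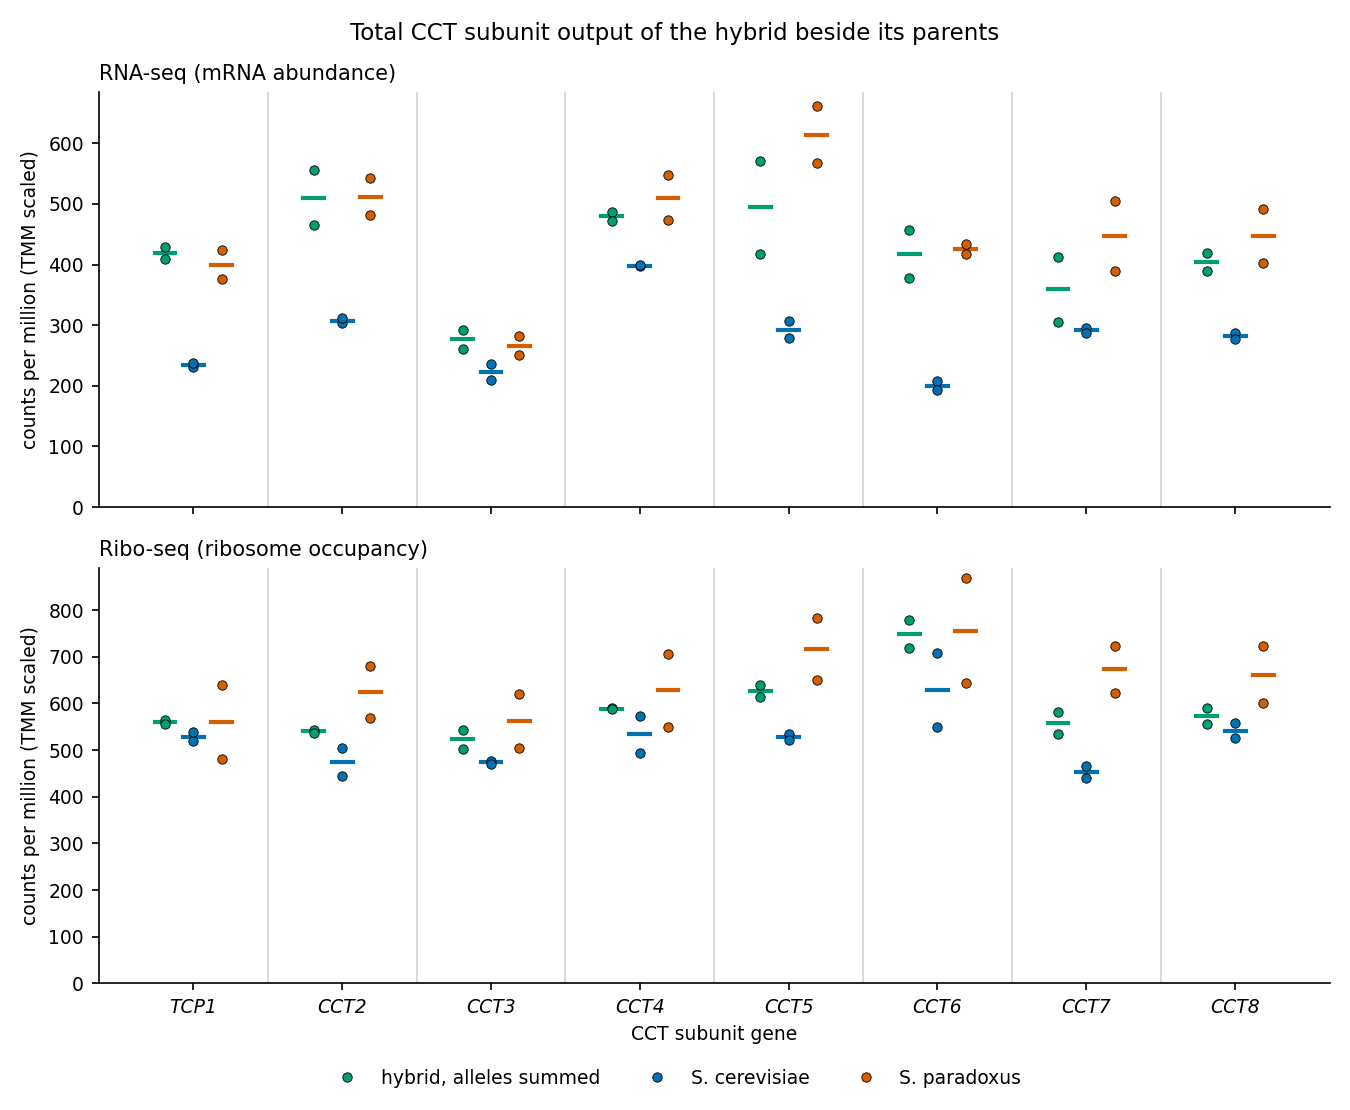
TMM-scaled CPM (vertical axes, from 0) of each CCT subunit gene in the hybrid with its alleles summed, in S. cerevisiae and in S. paradoxus, for RNA-seq (top) and Ribo-seq (bottom); points are the 2 replicates and bars their mean. The hybrid RNA-seq points lie above those of S. cerevisiae for all 8 genes (28.4% of all genes tested) and overlap those of S. paradoxus for all 8 (53.1% of all genes tested do not overlap).

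Within a strain, ribosome occupancy was compared with mRNA for each gene relative to the typical gene. The values are log2 Ribo-seq CPM minus log2 RNA-seq CPM, and both scales are set by TMM. In S. cerevisiae all 8 subunits were called higher, where 27.3% of all genes were, with a median of 0.8934, against -0.0438 for all genes tested. CCT6 was highest at 1.65 (SE 0.19, adjusted p = 2.69e-05), followed by TCP1 at 1.17 and CCT3 at 1.09, and CCT4 was lowest at 0.42 (SE 0.17, adjusted p = 0.0441). In S. paradoxus 5 were called higher, where 20.4% of all genes were, led by CCT3 at 1.08 (SE 0.16, adjusted p = 0.000309) and CCT6 at 0.83. CCT2, CCT4 and CCT5 were not called there. In the hybrid 5 were called higher, where 23.6% of all genes were, led by CCT3 at 0.92 (SE 0.16, adjusted p = 0.0006) and CCT6 at 0.85, and CCT2, CCT4 and CCT5 were not called.

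These values depend on the scale set between the assays. With column totals the median of all genes moved by -0.680 in S. cerevisiae, -0.457 in S. paradoxus and -0.449 in the hybrid. Only CCT3, CCT6 and TCP1 were then called in S. cerevisiae and only CCT3 in S. paradoxus and in the hybrid. The signs of CCT2, CCT4 and CCT7 in S. cerevisiae and of TCP1 in the hybrid turned to -0.06, -0.26, -0.04 and -0.03. The values of CCT2, CCT4 and CCT5, which had not been called, turned to -0.18, -0.16 and -0.23 in S. paradoxus and to -0.37, -0.15 and -0.11 in the hybrid. In S. cerevisiae all genes gave 1407 higher and 1624 lower calls with TMM, against 393 and 2993 with column totals. In S. paradoxus they gave 1055 higher and 1312 lower with TMM, against 326 and 2361. In the hybrid they gave 1215 higher and 1563 lower with TMM, against 448 and 2539. Without S. paradoxus Ribo-seq replicate 1, 1 of the 5 calls of S. paradoxus was left, and without its RNA-seq replicate 1, 2 were left. Without hybrid Ribo-seq replicate 1, 2 of the 5 calls of the hybrid were left, and without replicate 2 or RNA-seq replicate 2, 3. Without S. cerevisiae Ribo-seq replicate 2, 5 of the 8 calls of S. cerevisiae were left.

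A closed ring needs the 8 subunits in equal number, so their levels were set side by side per kilobase of coding length, which the scaling of libraries does not touch. Ribosome occupancy was more even over the subunits than mRNA in every library. The coefficient of variation over the 8 was 12.5% and 11.6% in hybrid Ribo-seq, 7.51% and 14.6% in S. cerevisiae Ribo-seq, and 10.6% and 10.3% in S. paradoxus Ribo-seq. In RNA-seq it was 18.8% and 24.1% in the hybrid, 22.4% and 25.2% in S. cerevisiae, and 24.8% and 22.1% in S. paradoxus. The Ribo-seq and RNA-seq ranges did not overlap in any strain. The ratio of the highest to the lowest subunit was 1.25 to 1.53 in Ribo-seq libraries and 1.86 to 2.23 in RNA-seq libraries. These are descriptions of 2 libraries a group, with no test.

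The order of the subunits differed between the assays. CCT6 had the highest occupancy per kilobase in all 6 Ribo-seq libraries, at 110% to 132% of the mean of the 8. In RNA-seq CCT6 was the lowest subunit in both S. cerevisiae libraries, at 73.6% and 70.0% of the mean. In S. paradoxus and the hybrid the lowest mRNA was CCT3, at 66.4% and 54.5% of the mean in S. paradoxus and 69.7% and 64.9% in the hybrid. CCT3 occupancy stood at 88.5% to 97.2% of the mean in all Ribo-seq libraries. CCT4 had the highest mRNA per kilobase in S. cerevisiae, at 145% and 150% of the mean, but its occupancy there was 102% and 110%. The highest mRNA in S. paradoxus was CCT5 in replicate 1 and CCT4 in replicate 2, and in the hybrid CCT5 in replicate 1 and CCT2 in replicate 2, so the top place was not settled by 2 libraries. The lowest occupancy was that of CCT7 in S. cerevisiae, at 87.5% and 85.8% of the mean, and that of TCP1 in S. paradoxus, at 87.2% and 81.5%.

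**Figure D4:**
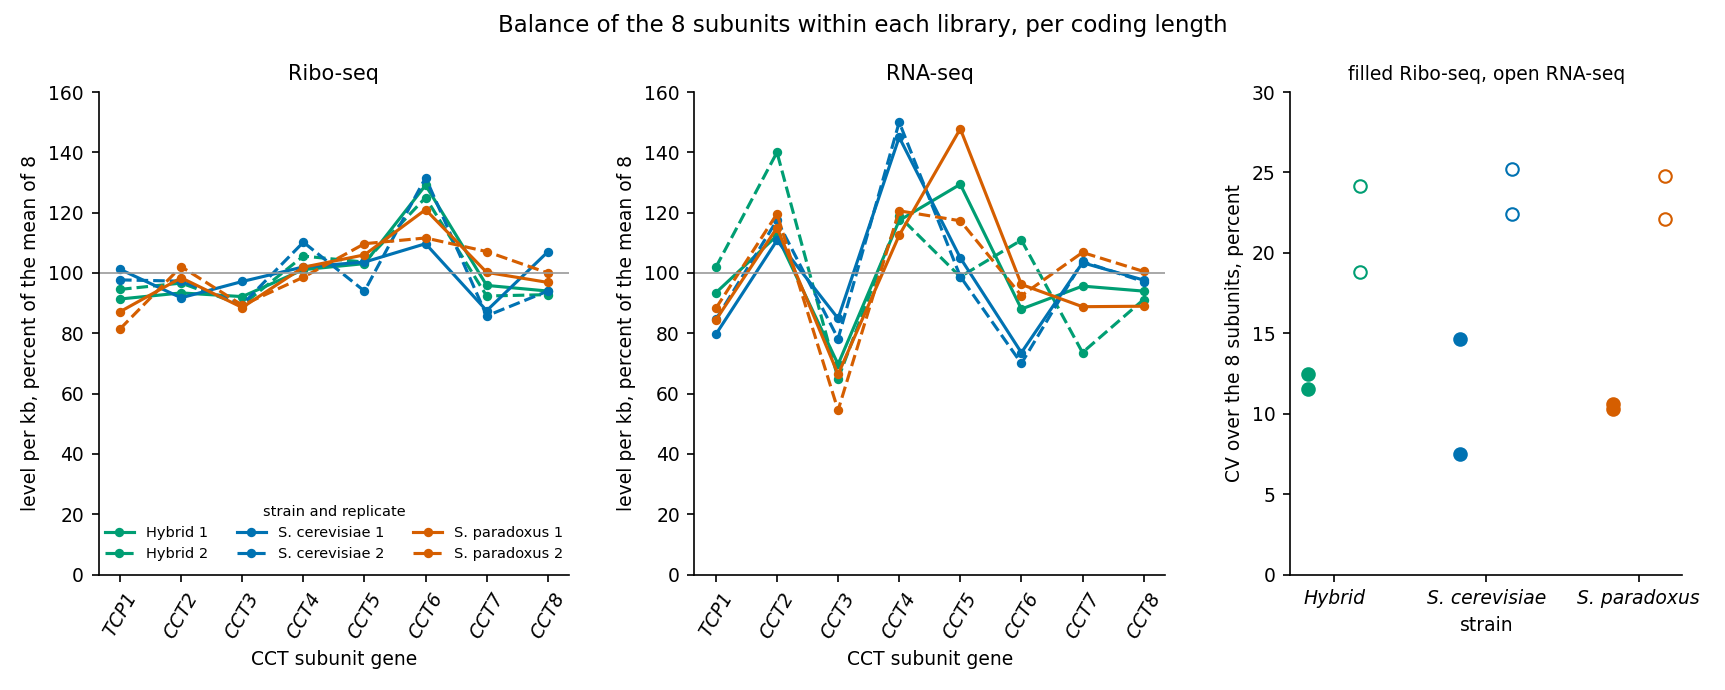
Level of each CCT subunit per kilobase as a percent of the mean of the 8 in its library, for Ribo-seq (left) and RNA-seq (middle), with 1 line a library, and the coefficient of variation over the 8 subunits in each library (right, filled Ribo-seq, open RNA-seq). In Ribo-seq the subunits span 81.5% (TCP1 in S. paradoxus) to 132% (CCT6 in S. cerevisiae), and every open point, 18.8% or more, lies above every filled point, 14.6% or less.

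Across the 16 columns, with each assay centred on its mean, the subunits mostly varied together. The Pearson correlation of a subunit's log2 CPM with the mean of the other 7 was 0.896 for CCT2, 0.88 for TCP1, 0.866 for CCT8, 0.858 for CCT5, 0.835 for CCT4, 0.791 for CCT6 and 0.698 for CCT7. CCT3 had the lowest value, 0.466. Among 4768 other genes with a mean of at least 10 CPM, the pattern most like that of the complex was that of PAB1 (YER165W, r = 0.963), the poly(A)-binding protein. TIF1 (0.953) and TIF2 (0.942), near-identical genes for the helicase eIF4A whose counts are uncertain, ZPR1 (0.949), a zinc finger protein that acts with elongation factor eEF1A, and ERG11 (0.943), the lanosterol demethylase of ergosterol synthesis, came next. The parental mRNA difference was -0.79 for PAB1, -1.74 for ZPR1 and -1.40 for ERG11. These outside genes were taken as those of highest r among the 4768, against the mean of all subunits. A subunit was set against the mean of the other 7, so the 2 kinds of r are not ranked here. Whether the covariation is particular to the complex was not tested. The columns share cells within a hybrid library and fall into few groups, so the correlations are descriptions only.

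Genes for the partners of CCT were examined next. Of the 6 prefoldin subunits 1 was called lower in parental mRNA, where 21.6% of all genes tested were. The same gene was called lower in occupancy, where 15.0% were. This was PAC10, with 85.6 and 78.9 CPM of mRNA in S. cerevisiae, against 167 and 141 CPM in S. paradoxus (log2 difference -0.90, SE 0.16, adjusted p = 0.000618). Its occupancy difference was -0.68 (SE 0.16, adjusted p = 0.00516), and that call was lost without S. paradoxus Ribo-seq replicate 2 (0.059). The other 5 prefoldin genes were negative in both without a call, and the medians of the 6 were -0.452 for mRNA and -0.276 for occupancy.

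The proteins that CCT folds were followed through 6 genes, for actin (ACT1), the tubulins TUB1, TUB2 and TUB3, and the activators CDC20 and CDH1. Of these 6, 1 was called lower in parental mRNA, where 21.6% of all genes tested were. CDC20 had 79.3 and 80.1 CPM in S. cerevisiae, against 95.8 and 126 CPM in S. paradoxus (-0.47, SE 0.17, adjusted p = 0.0399). This call was lost with column totals (-0.21, 0.384) and when any 1 of 9 libraries was left out. In occupancy CDC20 was called lower (-0.70, SE 0.18, adjusted p = 0.00811) and TUB3 higher (0.96, SE 0.21, adjusted p = 0.00353). Of all 5158 genes tested, 774 were called lower in occupancy and 928 higher. The CDC20 occupancy call was lost without S. cerevisiae Ribo-seq replicate 1 (0.0627). TUB3, the minor alpha-tubulin, had 304 and 333 CPM in S. cerevisiae Ribo-seq, against 194 and 133 CPM in S. paradoxus. Its S. cerevisiae allele was also called higher in hybrid occupancy, with 305 and 314 CPM, against 154 and 162 CPM from the S. paradoxus allele (0.97, SE 0.21, adjusted p = 0.0098), a call lost without either hybrid Ribo-seq library (0.241 and 0.228). TUB3 shares sequence with TUB1 and overlaps another gene of the R64 table, so its counts are uncertain. ACT1 was not called, with -0.14 for mRNA and 0.17 for occupancy.

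The mitochondrial chaperonin, a separate folding machine made of Hsp60 and its lid Hsp10, gave a comparison in another compartment. HSP60 had 286 and 292 CPM of mRNA in S. cerevisiae, against 591 and 601 CPM in S. paradoxus (-1.05, SE 0.17, adjusted p = 0.000393). Its occupancy was 2254 and 2617 CPM in S. cerevisiae, against 2737 and 1914 CPM in S. paradoxus, and the groups overlapped. Its translation efficiency difference was called higher (1.11, SE 0.24, adjusted p = 0.0248), a call lost when any 1 of 8 libraries was left out (0.0509 to 0.125). HSP60 was also called lower in the parental minus the allelic mRNA ratio (-1.23, SE 0.24, adjusted p = 0.00629). HSP10 was called in neither mRNA (-0.47) nor occupancy (-0.40).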

How the data were processed

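The deposited table held counts of reads per gene, not normalized, in 16 columns, per the file headers; the submitters' processing notes name CASAVA 1.8, cutadapt 1.2.1, Bowtie 0.12.8, bedtools 2.17.0 and sacCer3. Settings, the S. paradoxus build, the use of strand and the meaning of "Mix" in the parental headers were not given in the sources used here. Totals of the paired species columns lay within 0.18%, so depth differences between species no longer showed. Columns without a mapped sample numbered 0.

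Counts were tested with edgeR 4.0.16 in R 4.3.3: TMM scaling, genes kept by filterByExpr (minimum count 10), quasi-likelihood test, Benjamini-Hochberg adjustment at 0.05. The 16-column fit (5158 genes) had 8 residual degrees of freedom, and the 12-library fit with alleles summed (5159 genes) had 6. There were 15 comparisons. The 16-column edgeR fit was tried on simulated counts, and only its parental and allelic mRNA differences were checked there. All simulated columns were drawn independently, so the check does not cover the variation that the alleles of a hybrid library share. The interaction terms and the 12-library comparisons were not checked on simulated data. Translation efficiency and the parental minus allelic ratio were interaction terms. Alternatives were no filter, DESeq2 1.42.0 size factors and Wald test, a loess trend on coding length removed, a replicate block, parental columns alone, limma 3.58.1 voom, each library left out, and column totals, the last chosen after seeing the data.

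The 2 alleles of a hybrid library come from the same cells, and their replicate differences had correlations of 0.801 (RNA-seq) and 0.346 (Ribo-seq). Other groups share only a number in the labels, which do not say whether same-numbered samples came from 1 culture. The text names all 8 subunits, companion genes called in a parental or allelic comparison (up to 3 a list where none was), and the 5 genes of most similar pattern. The result of 1 companion list is not reported here. The members and lists were chosen with earlier results of these data known. Reference sequences of the genes were not used here.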

Additional observations from a re-analysis of the deposited data

Results flagged for a closer look

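For 3 subunits the mRNA difference between the parents differed from that between the alleles in the hybrid, by an interaction test in edgeR over all 16 columns. The parental minus the allelic log2 ratio was -0.824 for CCT3 (adjusted p = 0.034), -0.9013 for CCT5 (0.0437) and -0.8973 for CCT8 (0.0187). For CCT3 the parental value was -0.26 and the allelic value 0.57, for CCT5 -1.07 and -0.17, and for CCT8 -0.66 and 0.24. With column totals in place of TMM the 3 values were -0.51, -0.59 and -0.59 and none passed (adjusted p = 0.122, 0.128 and 0.0823). Each was also lost without either S. cerevisiae RNA-seq library, with adjusted p of 0.0603 to 0.166, and without either hybrid Ribo-seq library, with 0.0515 to 0.0948. With 2 samples a group no single sample could be tested as far from the others.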

How the results depend on the processing

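Of 2248 values of the 8 subunits under the alternatives, 2035 kept their direction and their side of the threshold, 101 lost and 54 gained a call, 54 changed sign without a call, and 4 reversed. The 4 were called translation efficiencies that turned negative with column totals: CCT2 (-0.0561), CCT4 (-0.2594) and CCT7 (-0.044) in S. cerevisiae and TCP1 (-0.0299) in the hybrid. Column totals gave 0 calls in parental occupancy, 2 in allelic mRNA, 0 in the parental minus allelic mRNA ratio, and 3, 1 and 1 in translation efficiency within S. cerevisiae, S. paradoxus and the hybrid. DESeq2's Wald test gave 2 in parental occupancy, 2 in parental translation efficiency, 2 in allelic mRNA and 5 in the parental minus allelic mRNA ratio. Removing the length trend gave 1, 2 and 5 in the last 3 of these and 8 in translation efficiency within the hybrid. Limma voom, with a within-library correlation of 0.733, gave 3 in allelic mRNA, 2 in allelic translation efficiency and 5 in the parental minus allelic mRNA ratio. Parental columns alone gave 2 in parental occupancy. The replicate block, with the number as a term, gave 2 in parental occupancy and 2 in allelic mRNA, and with a term for each hybrid library 3 in allelic mRNA and 2 in allelic translation efficiency; no other count of calls moved by over 1.5 times. The share of all genes called was not set beside each of these counts, nor beside those with a library left out. Several of these fits also called more of all genes, so the counts by themselves are no result about the subunits. The cause of these changes was not tested, and the block in the hybrid alone rests on fewer samples. Same-numbered samples of the parents share only a number in the labels, with correlations of 0.209 (RNA-seq) and 0.095 (Ribo-seq). The RNA-seq and Ribo-seq samples of a strain correlated by 0.029 to 0.311. With the number as a term TCP1 was no longer called in translation efficiency within the hybrid (0.42, adjusted p = 0.0508), and calls were gained by CCT5 in parental occupancy (0.0435), CCT6 in allelic mRNA (0.0498) and TCP1 in the parental minus allelic mRNA ratio (0.0422).

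Leaving out 1 library gave 5 to 7 calls in parental mRNA, 0 to 3 in parental occupancy, 0 to 3 in parental translation efficiency, 0 to 1 in allelic mRNA, 0 to 4 in the parental minus allelic mRNA ratio, 1 to 6 in hybrid mRNA against S. cerevisiae, 0 to 2 against S. paradoxus, and 5 to 8, 1 to 5 and 2 to 5 in translation efficiency within S. cerevisiae, S. paradoxus and the hybrid; in such a fit the lone sample is assumed to vary like the other groups. The 179 genes called over the whole table in parental translation efficiency became 377 with DESeq2's Wald test, 306 with the replicate block and 572 with parental columns alone. The 668 in allelic mRNA became 2124 with the library block and 2484 with voom, the 451 in allelic occupancy 1464 and 1814, and the 71 in allelic translation efficiency 426 and 812 (128 with DESeq2). The 640 in the parental minus allelic mRNA ratio became 1023 with the replicate block and 1483 with voom, and the 360 for occupancy became 601 and 800 (613 with DESeq2). The spread over subunits moved by under 0.1 percentage points with other coding lengths.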
